A study of Danio rerio with 12 samples.

Results

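The genes described here are 43 zebrafish gene IDs for proteins of the intestinal enterocyte, out of 32105 gene IDs counted in each library. They were chosen by name: 41 symbols were listed, 37 of them matched at least 1 ID, and where copies share a name every ID was taken. The list was drawn up with earlier results of these data known. Setting its counts beside the shares over all genes, as below, is therefore no independent test. The 4 symbols without an ID here were alpi.2, an intestinal alkaline phosphatase, cdhr2 and cdhr5a, cadherins that link microvilli to each other, and cdx1b, an intestinal transcription factor. All 43 IDs passed the filter on low counts, among the 23096 genes tested in all. By role they were 18 IDs for brush-border and digestive enzymes, 6 for nutrient transporters, 10 for lipid absorption and retinoid binding, 4 for an endocytic receptor complex, and 5 for brush-border structure and adhesion.

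Each library held RNA of 10 pooled whole larvae, collected at 119 hours post fertilisation (hpf), 5 days of age, and each of 4 groups had 3 libraries. Treated as3mt mutants and treated wild types (WT) had 1 mM inorganic arsenic (iAs) in the medium from 6 hpf, while untreated as3mt mutants and untreated WT had none. The mutant larvae came from an incross of F2 homozygous as3mt knockouts in an ABNYU background, made by CRISPR, with an 8 bp deletion in exon 3 that introduces a premature stop codon; the WT larvae were TAB14. Genotype and strain background therefore go together in every mutant to WT comparison, and cannot be told apart. All 4 groups were raised at 20 embryos per 10 mL well. The titles end in cl1, cl2 or cl3, but the labels do not say what cl means or whether replicate libraries came from separate clutches. The p-values therefore measure only the spread between these libraries, which may be technical.

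Enterocytes are the absorptive cells of the intestinal lining. Their apical membrane is folded into microvilli, the brush border, which carries enzymes that finish the digestion of peptides, sugars and lipids and transporters that take up the products. Absorbed fatty acids and monoacylglycerols are bound by small carrier proteins, rebuilt into triglycerides and packed into lipoproteins, and in the zebrafish gut a more distal class of enterocytes takes up whole proteins through an endocytic complex of cubilin, amnionless and Dab2. The as3mt gene encodes the methyltransferase that converts inorganic arsenic into methylated forms.

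The 12 libraries held 28909467 to 43759270 counts. AS3MT, the gene targeted in the mutant, had 3.02, 3.31 and 3.51 CPM in treated mutants, 9.77, 9.73 and 9.93 CPM in treated WT, 9.21, 9.91 and 9.52 CPM in untreated mutants and 14.3, 16.8 and 17.2 CPM in untreated WT. In both treatments every mutant library lay below every WT library, with log2 fold changes of -1.58 ± 0.11 in iAs (SE, adjusted p = 4.3e-10) and -0.75 ± 0.10 untreated (SE, adjusted p = 2.2e-05). AS3MT itself was lower in iAs, by a log2 fold change of -1.54 ± 0.11 in mutants (SE, adjusted p = 1.7e-10) and -0.71 ± 0.10 in WT (SE, adjusted p = 7.2e-06), with an interaction of -0.83 ± 0.15 (SE, adjusted p = 3.0e-04). CPM is the gene's count relative to the effective size of its library on the usual scale, and adjusted p-values come from edgeR's quasi-likelihood test with Benjamini-Hochberg adjustment over all 23096 genes. A gene was called below an adjusted p of 0.05.

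In iAs the enterocyte genes were lower in both genotypes, and the fall was larger in the mutant. In treated against untreated mutants 41 of the 43 IDs fell and 1 rose, where 32.5% of all tested genes were called lower and 31% higher. Of these, 38 fell at least 2-fold, as did 11.9% of all genes, and the median log2 fold change of the 43 was -2.50, against 0.00917 for all genes. In treated against untreated WT 38 fell and 1 rose, where 22.2% of all genes were called lower and 22.6% higher. There 26 fell at least 2-fold, as did 3.29% of all genes, and the median was -1.21, against 0.0104 for all genes. Summed over the members, the level was 1410 to 1500 CPM in treated mutants, 2620 to 2980 CPM in treated WT, 5320 to 5580 CPM in untreated mutants and 5000 to 5490 CPM in untreated WT. The sum in iAs was thus 26.7% of the untreated sum in mutants and 53% in WT. In RNA from whole larvae, fewer enterocytes and less RNA per enterocyte cannot be told apart. How much of each gene's RNA came from other tissues was not measured.

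**Figure D1:**
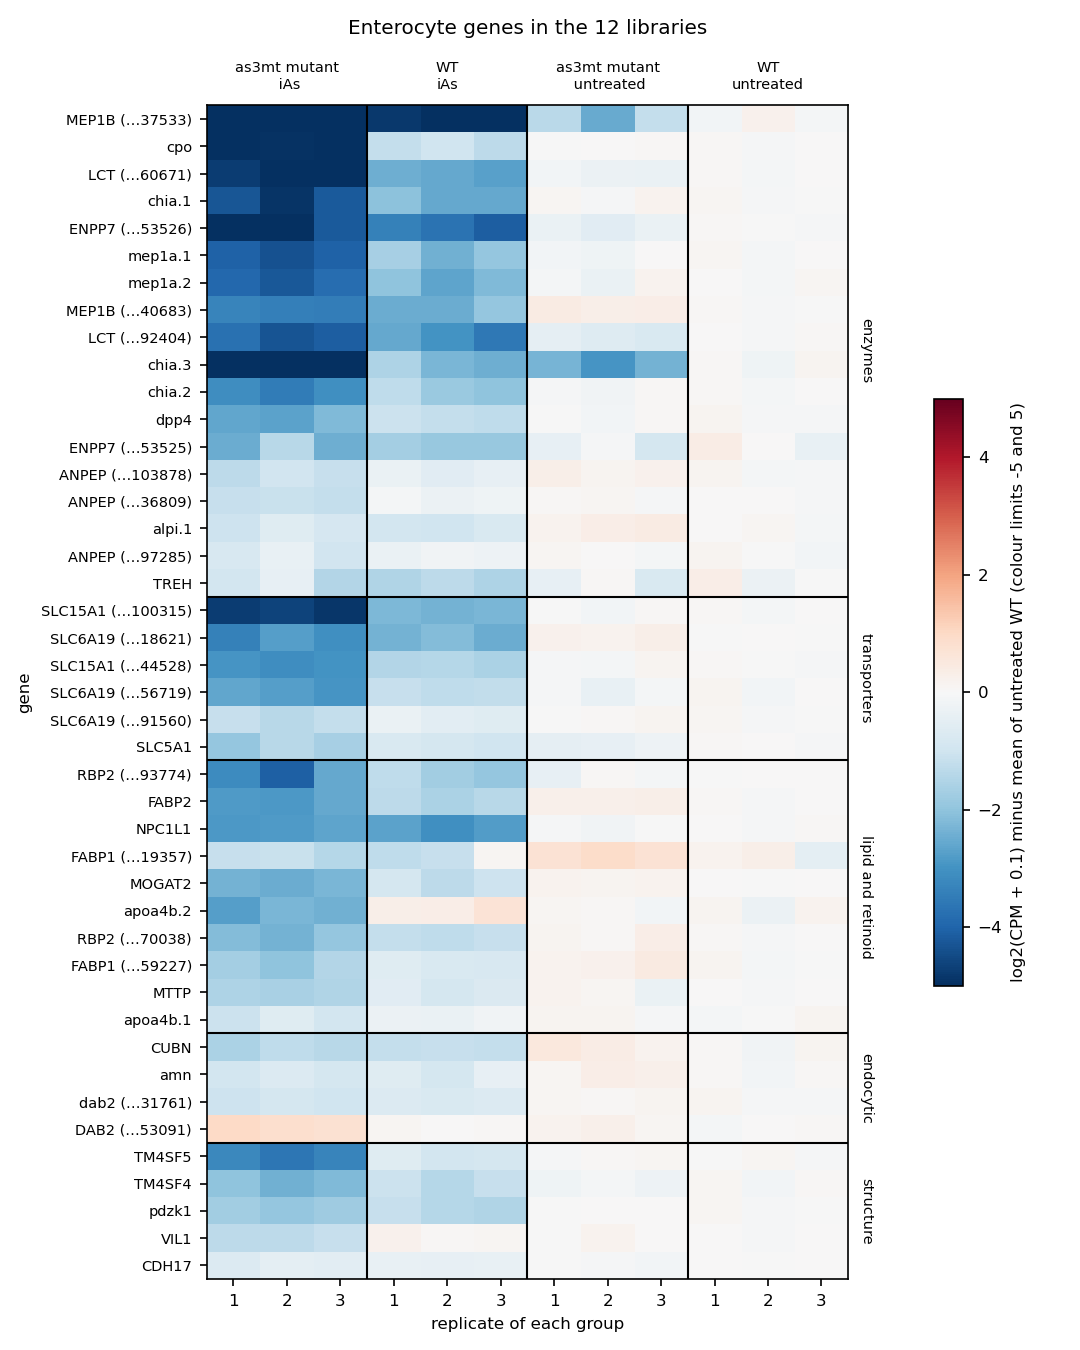
Heat map of the 43 enterocyte genes (rows, grouped by role) in the 12 libraries (columns: 3 replicates each of treated mutant, treated WT, untreated mutant and untreated WT). Colour is log2(CPM + 0.1) minus the mean of untreated WT, limited to -5 and 5, and genes that share a name carry the last digits of their ENSDARG ID. The treated mutant columns are the darkest blue in most rows, with DAB2 (ENSDARG00000053091) red and TREH mixed.

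Of the 18 enzyme IDs 17 fell in treated mutants and 17 in treated WT, with median log2 fold changes of -3.45 and -2.03. The lowest was MEP1B (ENSDARG00000037533), a subunit of the metalloprotease meprin. None of the 3 treated mutant libraries had a count (0 CPM in each), while the untreated mutants had 4.74, 2.03 and 5.31 CPM, 450 counts in all. Setting the treated group to a floor of 3 counts in all, the pooled counts of this ID were at least 140-fold lower in iAs (edgeR adjusted p = 6.0e-05). In treated WT it had 0.331, 0.0677 and 0.0229 CPM, 15 counts in all, against 11.1, 14.2 and 11.5 CPM in untreated WT. That was a 95.7-fold fall in WT (adjusted p = 2.6e-05), or 254-fold without replicate 1 of the treated WT.

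The carboxypeptidase gene cpo, whose product trims the ends of peptides, had 1.67, 2.12 and 2.00 CPM in treated mutants, against 65.9, 68.0 and 70.8 CPM in untreated mutants. In treated WT it had 29.6, 33.9 and 27.3 CPM, against 69.9, 64.7 and 67.6 CPM in untreated WT. The 2 untreated groups overlapped, treated WT lay below both, and treated mutants lay far below treated WT. The fall was 35.3-fold in mutants (log2 -5.14 ± 0.10 SE, adjusted p = 1.5e-19) and 2.22-fold in WT (log2 -1.15 ± 0.08 SE, adjusted p = 1.0e-10).

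LCT (ENSDARG00000060671), a gene named for lactase, had 2.72, 1.53 and 2.00 CPM in treated mutants, against 69.4, 61.0 and 60.2 CPM in untreated mutants. Treated WT had 13.9, 12.9 and 11.3 CPM, against 78.9, 71.4 and 76.4 CPM in untreated WT. No treated library reached any untreated one, and the falls were 30.3-fold in mutants (adjusted p = 7.0e-16) and 5.96-fold in WT (adjusted p = 8.1e-13). The other LCT ID, ENSDARG00000092404, had closer log2 fold changes, -3.52 in mutants and -3.06 in WT. The difference between its 2 responses was not called (edgeR adjusted p = 0.219). The acidic chitinase gene chia.1 had 8.39, 5.35 and 8.89 CPM in treated mutants, against 174, 159 and 188 CPM in untreated mutants. Its levels in treated WT were 39.6, 27.8 and 27.5 CPM, against 177, 156 and 161 CPM in untreated WT. The groups within each genotype were far apart, and chia.1 fell 23-fold in mutants (adjusted p = 2.4e-08) and 5.21-fold in WT (adjusted p = 3.5e-06).

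The other enzymes that break down peptides fell over a wide range. The meprin genes mep1a.1 and mep1a.2 fell 16.5-fold and 15.3-fold in mutants, and 3.97-fold and 4.84-fold in WT. The second MEP1B ID, ENSDARG00000040683, fell 13.6-fold in mutants and 4.86-fold in WT. The dipeptidyl peptidase gene dpp4 fell 5.51-fold in mutants and 2.26-fold in WT. Smallest were the falls of ANPEP, aminopeptidase N, whose 3 IDs had log2 fold changes of -1.35, -1.21 and -0.70 in mutants and -0.43, -0.19 and -0.26 in WT. Of the WT values the -0.26 of ANPEP (ENSDARG00000097285) was not called (adjusted p = 0.122), and the call of the -0.19 was lost without replicate 2 or 3 of the treated WT or without replicate 1 or 2 of the untreated WT (log2 -0.20 to -0.14).

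Among enzymes acting on lipids and sugars, ENPP7 (ENSDARG00000053526), named for the intestinal sphingomyelinase, fell 21.4-fold in mutants and 13.4-fold in WT. Its second ID, ENSDARG00000053525, stayed under 1 CPM in every library and had log2 fold changes of -2.44 in mutants and -2.63 in WT, the first being -3.72 without replicate 2 of the treated mutants. The intestinal alkaline phosphatase gene alpi.1 had log2 fold changes of -1.15 ± 0.12 in mutants and -0.91 ± 0.12 in WT (SE). TREH, the trehalose-splitting enzyme, is given in full because it was the 1 enzyme not called in mutants, a choice made after its values were seen. It had 0.27, 0.425 and 0.157 CPM in treated mutants against 0.429, 0.631 and 0.311 CPM in untreated mutants, groups that overlapped (log2 -0.67 ± 0.45 SE, adjusted p = 0.2). In WT it was lower in iAs, with 0.15, 0.181 and 0.137 CPM in treated WT against 0.78, 0.464 and 0.591 CPM in untreated WT (log2 -1.94 ± 0.47 SE, adjusted p = 0.00197). At these levels, all under 1 CPM, counting error limits both values.

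All 6 transporter IDs fell in both genotypes, with medians of -2.80 in mutants and -1.35 in WT. SLC15A1 (ENSDARG00000100315), a copy of the proton-coupled peptide transporter, had 6.74, 7.31 and 6.11 CPM in treated mutants, against 178, 163 and 190 CPM in untreated mutants. It had 37.6, 35.3 and 37.4 CPM in treated WT, against 190, 170 and 184 CPM in untreated WT. The 4 groups formed 3 separate levels, with the untreated genotypes together on top, and the falls were 26.3-fold in mutants (adjusted p = 2.2e-20) and 4.93-fold in WT (adjusted p = 2.3e-16).

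The other copy, SLC15A1 (ENSDARG00000044528), had 32.1, 29.2 and 31.1 CPM in treated mutants, against 238, 234 and 277 CPM in untreated mutants. It had 90.7, 93.4 and 84.3 CPM in treated WT, against 263, 245 and 242 CPM in untreated WT. The order of groups was the same as for the first copy, with falls of 8.09-fold in mutants (adjusted p = 2.9e-18) and 2.79-fold in WT (adjusted p = 3.3e-13).

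SLC6A19, the transporter of neutral amino acids, had 3 IDs. For ENSDARG00000018621 the levels were 9.6, 14.8 and 12.1 CPM in treated mutants against 117, 113 and 125 CPM in untreated mutants, and 19.7, 22.4 and 18.0 CPM in treated WT against 101, 103 and 99.5 CPM in untreated WT. For ENSDARG00000056719 they were 11.1, 9.97 and 8.55 CPM in treated mutants against 64.7, 52.2 and 62.6 CPM in untreated mutants, and 30.6, 28.1 and 29.0 CPM in treated WT against 74.4, 61.0 and 67.9 CPM in untreated WT. Neither had an overlap between treated and untreated libraries of a genotype. The first fell 9.74-fold in mutants (adjusted p = 9.8e-13) and 5.04-fold in WT (adjusted p = 1.1e-10), and the second 6.04-fold in mutants (adjusted p = 4.5e-14) and 2.32-fold in WT (adjusted p = 3.1e-09). The third ID, ENSDARG00000091560, fell 2.48-fold in mutants and 1.4-fold in WT, and SLC5A1, the sodium-glucose cotransporter, fell 2.43-fold in mutants and 1.85-fold in WT.

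**Figure D2:**
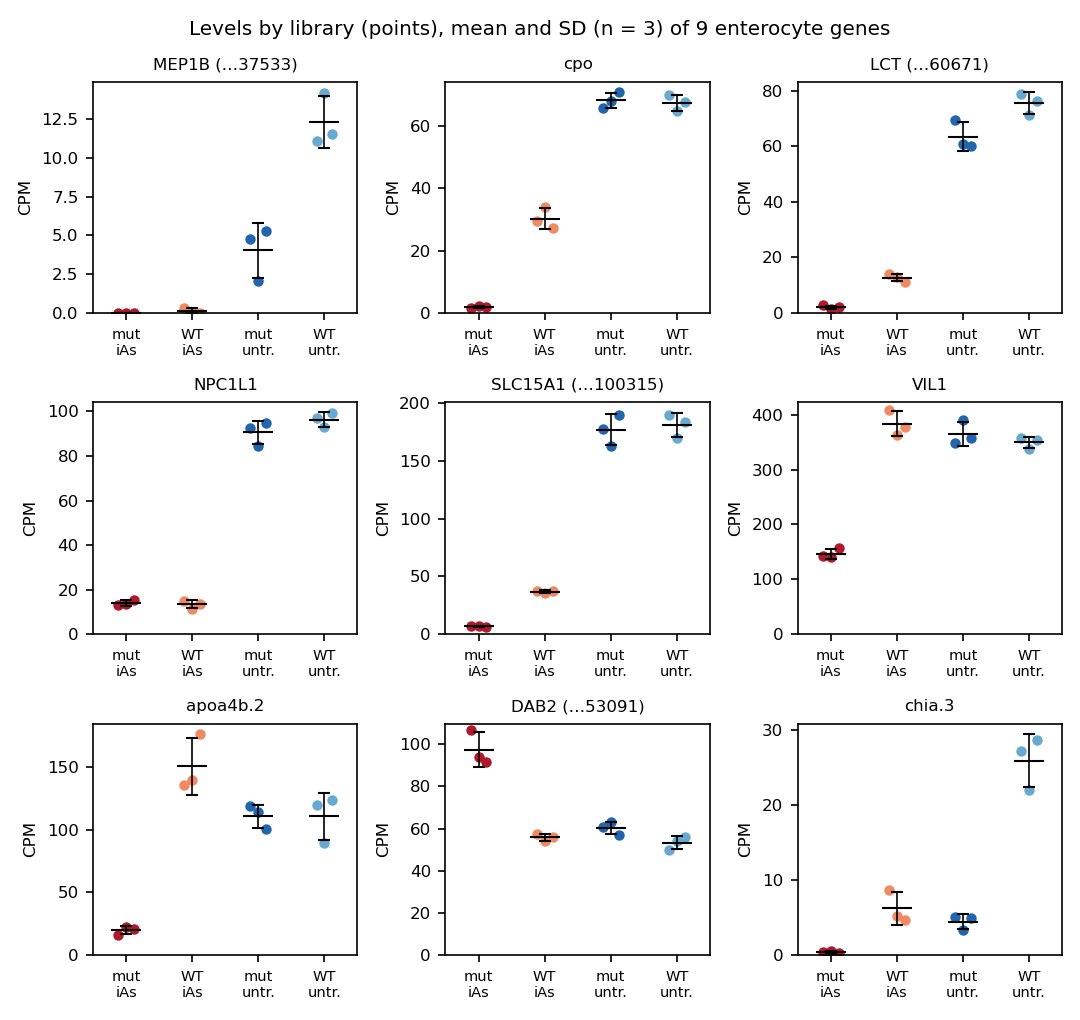
Levels in CPM (vertical axes, each starting at 0) of 9 enterocyte genes in every library (points), with the mean and SD of each group (n = 3), for treated mutants, treated WT, untreated mutants and untreated WT from left to right. NPC1L1 was at like levels in treated mutants and treated WT, and VIL1 and apoa4b.2 were low in treated mutants alone. DAB2 (ENSDARG00000053091) was highest in treated mutants. The gene chia.3 was high in untreated WT alone, lowest in treated mutants, and overlapped between untreated mutants and treated WT.

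All 10 lipid and retinoid IDs fell in treated mutants, with a median of -2.52, and in treated WT 8 fell and 1 rose, with a median of -0.97. FABP2, the intestinal fatty acid carrier, had 62.3, 60.3 and 74.3 CPM in treated mutants, against 528, 517 and 541 CPM in untreated mutants. It had 176, 147 and 166 CPM in treated WT, against 457, 418 and 442 CPM in untreated WT. Groups of a genotype did not overlap, and the falls were 8.06-fold in mutants (adjusted p = 1.5e-17) and 2.69-fold in WT (adjusted p = 3.1e-12).

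NPC1L1, through which cholesterol enters the enterocyte, had 13, 13.6 and 15.3 CPM in treated mutants, against 92.4, 84.7 and 94.7 CPM in untreated mutants. It had 14.9, 11.4 and 13.7 CPM in treated WT, against 97.3, 92.9 and 99.2 CPM in untreated WT. Treated mutants and treated WT overlapped, as did the untreated groups. NPC1L1 fell 6.51-fold in mutants (adjusted p = 2.5e-16) and 7.25-fold in WT (adjusted p = 1.6e-16).

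RBP2 is a cytosolic retinol-binding protein of the enterocyte. The ID RBP2 (ENSDARG00000093774) had 5.18, 2.63 and 7.67 CPM in treated mutants against 34.7, 48.3 and 43.5 CPM in untreated mutants, an 8.22-fold fall (adjusted p = 2.8e-05). In treated WT it had 19, 13.8 and 12.1 CPM against 45.9, 46.3 and 46.5 CPM in untreated WT, a 3.11-fold fall (adjusted p = 0.0015). Relative to their mean the treated mutant libraries differed most among themselves, but all lay below the untreated ones. FABP1 (ENSDARG00000019357), named for the liver-type fatty acid carrier, had 0.135, 0.142 and 0.094 CPM in treated mutants against 0.757, 0.906 and 0.763 CPM in untreated mutants (log2 -2.67 ± 0.51 SE, adjusted p = 1.1e-04). In WT its groups overlapped, at 0.12, 0.135 and 0.457 CPM in treated WT against 0.501, 0.541 and 0.278 CPM in untreated WT (log2 -0.87 ± 0.48 SE, adjusted p = 0.15), and without replicate 3 of the treated WT it was called (log2 -1.79, adjusted p = 0.0124).

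The remaining lipid genes fell less than these in mutants. MOGAT2, which rebuilds diacylglycerol from absorbed monoacylglycerol, fell 5.81-fold in mutants and 2.1-fold in WT, and RBP2 (ENSDARG00000070038) fell 5.02-fold in mutants and 2.31-fold in WT. The more abundant FABP1 ID, ENSDARG00000059227, fell 4-fold in mutants and 1.66-fold in WT. MTTP, which loads triglyceride onto nascent lipoproteins, fell 2.94-fold in mutants and 1.65-fold in WT. The apolipoprotein gene apoa4b.1 had log2 fold changes of -0.93 in mutants and -0.28 in WT, and the WT call was lost when replicate 1 or 2 of the treated WT or replicate 2 or 3 of the untreated WT was left out (log2 -0.28 to -0.21).

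Its copy apoa4b.2 moved in opposite directions in the genotypes. It had 16.2, 22.3 and 20.5 CPM in treated mutants, against 119, 114 and 101 CPM in untreated mutants. In treated WT it had 136, 140 and 177 CPM, against 120, 89.5 and 124 CPM in untreated WT. All treated mutant libraries were below and all treated WT libraries above the untreated ones, a 5.67-fold fall in mutants (adjusted p = 3.2e-07) and a 1.36-fold rise in WT (adjusted p = 0.0392). The WT rise was near the threshold: its call was lost in 6 of the 12 fits that left out 1 library, among them those without replicate 3 of the treated WT (log2 0.30, adjusted p = 0.135) and without replicate 2 of the untreated WT (log2 0.32, adjusted p = 0.0846). The other 4 left out replicate 3 of the treated mutants or any 1 of the 3 untreated mutant libraries (log2 0.43 to 0.44).

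Of the 4 endocytic IDs 3 fell and 1 rose in treated mutants, and 3 fell in treated WT, with medians of -1.07 and -0.67. CUBN, the cubilin receptor, had 20.1, 24.6 and 23.0 CPM in treated mutants against 85.1, 77.4 and 68.3 CPM in untreated mutants, and 26.2, 26.7 and 25.8 CPM in treated WT against 61.5, 53.6 and 64.9 CPM in untreated WT. Its partner amn, which anchors cubilin in the membrane, had 3.59, 4.33 and 3.73 CPM in treated mutants against 7.47, 8.79 and 8.42 CPM in untreated mutants, and 4.54, 3.7 and 5.19 CPM in treated WT against 7.35, 6.32 and 7.27 CPM in untreated WT. Both genes had lower levels in every treated library than in any untreated library. CUBN fell 3.41-fold in mutants (adjusted p = 7.9e-13) and 2.29-fold in WT (adjusted p = 9.6e-10), and amn 2.12-fold in mutants (adjusted p = 9.6e-07) and 1.56-fold in WT (adjusted p = 8.7e-04).

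The endocytic adaptor Dab2 had IDs that moved apart. For dab2 (ENSDARG00000031761) the levels were 18.4, 20.6 and 19 CPM in treated mutants against 39.9, 39.6 and 41.4 CPM in untreated mutants, and 23.7, 22.3 and 23.5 CPM in treated WT against 41.0, 35.8 and 36.5 CPM in untreated WT. For DAB2 (ENSDARG00000053091) they were 107, 94.1 and 91.4 CPM in treated mutants against 60.6, 62.9 and 57.0 CPM in untreated mutants, and 57.3, 54.3 and 55.8 CPM in treated WT against 50, 53.9 and 55.9 CPM in untreated WT. The first was lower in every treated library, and the second was higher in treated mutants while the WT groups overlapped. The first fell 2.08-fold in mutants (adjusted p = 6.3e-11) and 1.63-fold in WT (adjusted p = 9.6e-08). The second rose 1.62-fold in mutants (adjusted p = 9.9e-09) and had a log2 fold change of 0.07 in WT (adjusted p = 0.443, 95% interval -0.07 to 0.21).

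All 5 structure and adhesion genes fell in treated mutants and 4 fell in treated WT, with medians of -1.83 and -0.81. TM4SF5, a tetraspan membrane protein, had 2.05, 1.53 and 1.94 CPM in treated mutants against 19.1, 20.4 and 21.2 CPM in untreated mutants, and 13.1, 10.3 and 10.8 CPM in treated WT against 19.7, 20.9 and 18.8 CPM in untreated WT. Its relative TM4SF4 had 46.1, 34.8 and 40.6 CPM in treated mutants against 163, 174 and 157 CPM in untreated mutants, and 88.3, 69.8 and 84.5 CPM in treated WT against 201, 168 and 193 CPM in untreated WT. For both, treated mutants were lowest and treated WT lay between them and the untreated groups. TM4SF5 fell 11-fold in mutants (adjusted p = 2.5e-15) and 1.75-fold in WT (adjusted p = 2.1e-06), and TM4SF4 fell 4.06-fold in mutants (adjusted p = 1.7e-10) and 2.32-fold in WT (adjusted p = 1.6e-07).

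The scaffold gene pdzk1, whose product holds transporters at the apical membrane, had 35.4, 30.9 and 33.8 CPM in treated mutants against 116, 120 and 120.0 CPM in untreated mutants, and 52.7, 43.7 and 41.4 CPM in treated WT against 125, 112 and 115 CPM in untreated WT. VIL1, villin, which bundles the actin core of the microvilli, had 142, 140.0 and 157 CPM in treated mutants against 348, 391 and 357 CPM in untreated mutants, and 409, 363 and 378 CPM in treated WT against 357, 338 and 355 CPM in untreated WT. VIL1 was low in the treated mutants alone, and treated WT libraries were all above the untreated WT ones. It fell 2.5-fold in mutants (adjusted p = 2.9e-13), and in WT its log2 fold change was 0.13 (adjusted p = 0.1, 95% interval -0.00 to 0.27). By contrast pdzk1 fell in both, 3.55-fold in mutants (adjusted p = 3.7e-14) and 2.56-fold in WT (adjusted p = 1.1e-11). The intestinal cadherin CDH17 had small falls, with log2 fold changes of -0.50 ± 0.06 in mutants and -0.38 ± 0.06 in WT (SE).

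**Figure D3:**
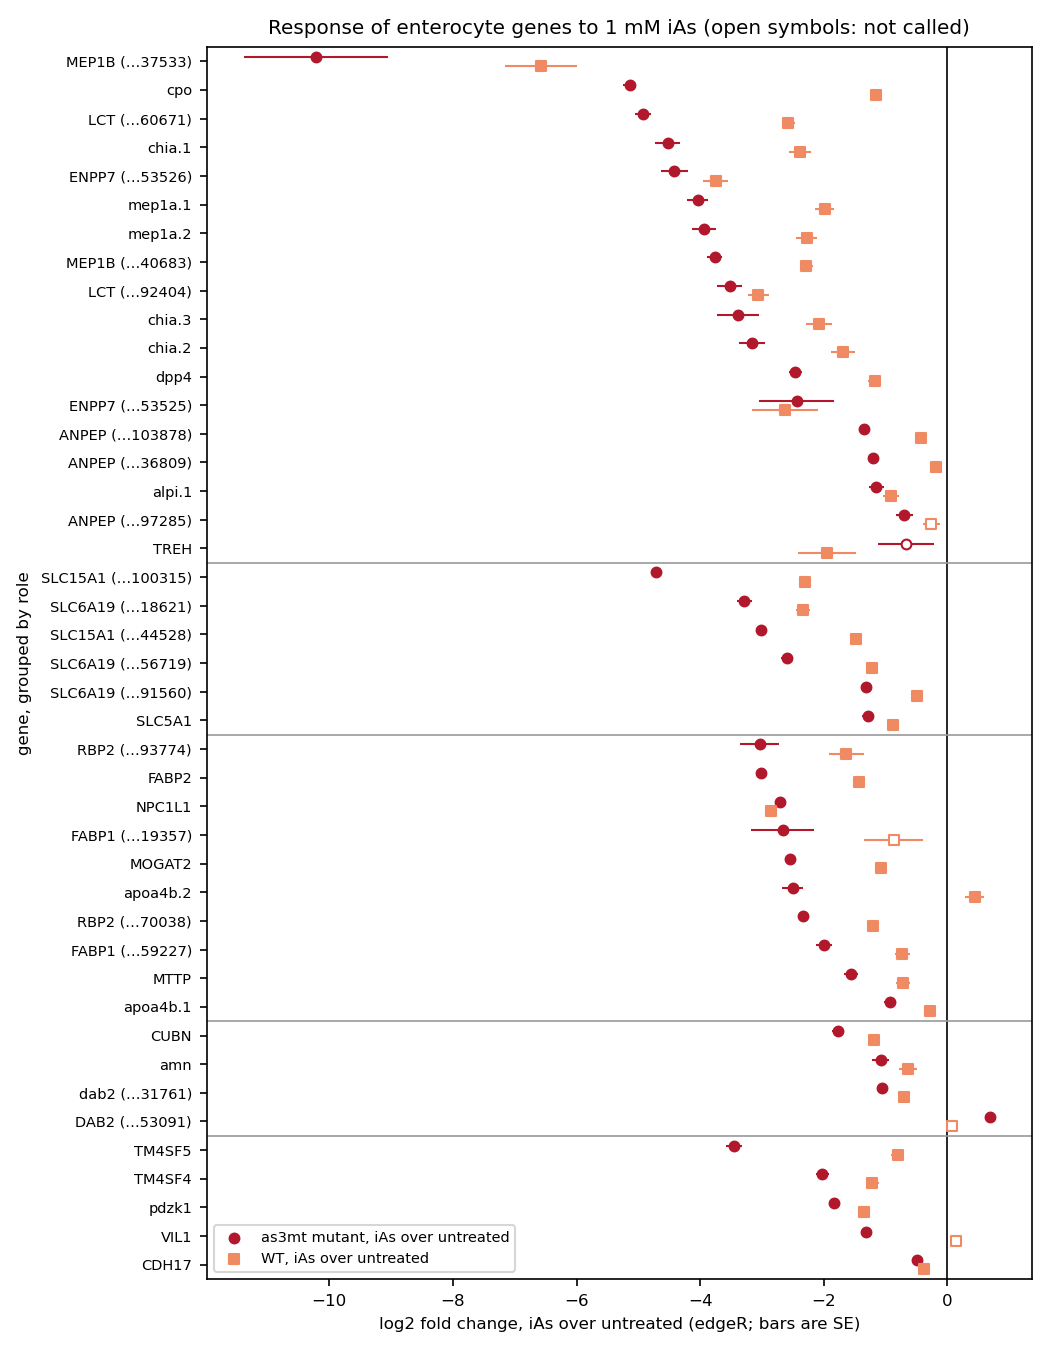
Log2 fold change in iAs over untreated (horizontal axis) of each of the 43 enterocyte genes (rows, grouped by role), in as3mt mutants and in WT, with SE bars and open symbols where not called. In 39 of the 43 rows the mutant value lies to the left of the WT value, and the 4 other rows are TREH, ENPP7 (ENSDARG00000053525), NPC1L1 and DAB2 (ENSDARG00000053091); the fitted mutant value of MEP1B (ENSDARG00000037533), at 0 counts in iAs, depends on the prior count and is no bound.

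Whether the response differed between genotypes was tested as the interaction, the iAs response of mutants minus that of WT. It was lower than 0 for 31 of the 43 IDs and higher for 1, where 18.1% of all tested genes were called lower and 12.2% higher, and its median was -1.12, against -0.0463 for all genes. The split of all genes depended on the scaling: 4175 were lower and 2814 higher as reported, and 5131 lower and 2087 higher with library size alone, while the members' counts were within 1.5 times under every scaling tried. Of the members, 21 had responses at least 2-fold lower in mutants, as did 4.92% of all genes. Treated mutants were also lower than treated WT in 34 IDs and higher in 1, where 27.9% of all genes were called lower and 22.5% higher, with a median of -1.0 against -0.0443 for all genes. These comparisons and the responses above share the same libraries. Across the 43 genes the mutant and WT responses had a Pearson r of 0.827 and a Spearman rho of 0.741, a description across genes that share libraries. Both include MEP1B (ENSDARG00000037533), whose fitted mutant value is the lowest of the 43 and depends on the prior count. The Pearson r without this ID was not computed.

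Among enzymes the largest called interactions were those of cpo, with -3.99 ± 0.13 (SE, adjusted p = 1.6e-14), and LCT (ENSDARG00000060671), with -2.34 ± 0.17 (SE, adjusted p = 1.7e-08). Within iAs cpo averaged 1.93 ± 0.234 CPM in mutants and 30.3 ± 3.36 CPM in WT, and this LCT ID 2.09 ± 0.601 CPM in mutants and 12.7 ± 1.3 CPM in WT (SD, n = 3 each). All 6 transporters were called, led by SLC15A1 (ENSDARG00000100315) with -2.42 ± 0.10 (SE, adjusted p = 6.6e-13) and SLC15A1 (ENSDARG00000044528) with -1.53 ± 0.10 (SE, adjusted p = 4.0e-10). Among lipid genes they were apoa4b.2, with -2.95 ± 0.23 (SE, adjusted p = 7.9e-06), and FABP2, with -1.58 ± 0.11 (SE, adjusted p = 9.9e-10). TM4SF5, with -2.65 ± 0.17 (SE, adjusted p = 3.5e-10), and VIL1, with -1.45 ± 0.09 (SE, adjusted p = 3.7e-10), led the structure genes. In the endocytic group CUBN had -0.58 ± 0.12 (SE, adjusted p = 0.0014), and DAB2 (ENSDARG00000053091) was the 1 member above 0, with 0.63 ± 0.09 (SE, adjusted p = 4.0e-05).

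The interaction was not called for 11 members, 7 of them enzymes. For NPC1L1 it was 0.15, with a 95% interval of -0.09 to 0.40, and for CDH17 -0.12, with an interval of -0.29 to 0.06. For alpi.1 it was -0.24, with an interval of -0.60 to 0.12. For MEP1B (ENSDARG00000037533) the interval ran from -10.22 to 2.96, since the treated libraries held 0 counts in mutants and 15 counts in WT. At 0 counts this interval depends on the prior count, and its lower end is no bound. In iAs, with mutants set to the same floor, the pooled counts of this ID were 4.3-fold lower in mutants than in WT. That value is no bound, since it leaves out the spread of the treated WT counts, which were 11, 3 and 1. The difference was not called (edgeR adjusted p = 0.132). It was called without replicate 2 of the untreated mutants (edgeR adjusted p = 0.015) and by DESeq2 in place of edgeR (log2 -4.64, adjusted p = 0.00273). The others were ENPP7 (ENSDARG00000053525 and ENSDARG00000053526), LCT (ENSDARG00000092404), ANPEP (ENSDARG00000097285), TREH, FABP1 (ENSDARG00000019357) and amn. With 1 library left out, 5 of these were called: ENPP7 (ENSDARG00000053526) without replicate 3 of the treated mutants (log2 -1.03, adjusted p = 0.00465) or of the treated WT (-0.85, adjusted p = 0.0296), LCT (ENSDARG00000092404) without replicate 3 of the treated WT (-0.69, adjusted p = 0.0301), and ANPEP (ENSDARG00000097285) without replicate 2 of the treated mutants (-0.59, adjusted p = 0.018). FABP1 (ENSDARG00000019357) was called without replicate 1 or 2 of the treated WT (-2.07 and -2.11), and amn without replicate 2 of the treated WT (-0.58, adjusted p = 0.038).

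Without iAs the genotypes were close for most members. In untreated mutants against untreated WT 4 of the 43 IDs were lower and 3 higher, where 6.91% of all tested genes were called lower and 6.77% higher, and the median log2 difference was 0.01. The largest was chia.3, another acidic chitinase, described with all its libraries because of this difference, after its values were seen. It had 0.431, 0.51 and 0.313 CPM in treated mutants, 8.69, 5.26 and 4.67 CPM in treated WT, 5.07, 3.29 and 4.94 CPM in untreated mutants and 27.2, 22 and 28.7 CPM in untreated WT. Mutants lay below WT in both treatments, 5.83-fold untreated (adjusted p = 2.2e-06) and 14.5-fold in iAs (adjusted p = 2.6e-07), and chia.3 fell in iAs in both genotypes, 10.5-fold in mutants and 4.22-fold in WT.

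The other untreated differences were smaller. MEP1B (ENSDARG00000037533) averaged 4.03 ± 1.75 CPM in untreated mutants and 12.3 ± 1.68 CPM in untreated WT (SD, n = 3 each; log2 -1.61, adjusted p = 0.0221), while the other MEP1B ID averaged 67.4 ± 2.48 CPM and 52.8 ± 2.47 CPM in the same 2 groups (log2 0.35, adjusted p = 0.0171). With DESeq2 in place of edgeR the call of MEP1B (ENSDARG00000037533) was lost (log2 -1.62, adjusted p = 0.091). LCT (ENSDARG00000092404) averaged 13.2 ± 1.38 CPM in untreated mutants and 20.3 ± 0.742 CPM in untreated WT (log2 -0.62, adjusted p = 0.00868). SLC5A1 had a log2 difference of -0.36, FABP2 of 0.27 and CUBN of 0.36. Only chia.3 and LCT (ENSDARG00000092404) kept their call in all 12 fits that left out 1 library; without replicate 1 of the untreated mutants 3 members were called, without replicate 2 of the untreated WT 2, without replicate 3 of the untreated WT 4, and without replicate 1 or 2 of the treated mutants 11.

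Several members are neighbours in the genome, and their copies did not always respond alike. In the GRCz12tu annotation no protein-coding gene lies between mep1a.1 and mep1a.2 or between chia.1 and chia.2, and chia.3 is separated from chia.2 by 1 gene. The adjacent meprin copies fell 16.5-fold and 15.3-fold in mutants, while chia.1 fell 23-fold and chia.2 8.97-fold. The apolipoprotein copies apoa4b.1 and apoa4b.2, with 3 protein-coding genes between them, had interactions of -0.65 and -2.95. Copies that share a name could not be assigned to a paralogue, and whether reads were split between near-identical copies is not stated.

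Other genes of the same pathways, listed by known function, moved in both directions; as above, 32.5% of all genes were called lower and 31% higher in mutants, and 22.2% lower and 22.6% higher in WT. Of 6 other brush-border enzymes 5 fell and 1 rose in treated mutants, with a median of -1.49, and 4 fell and 2 rose in treated WT, with a median of -0.70. XPNPEP2, an aminopeptidase, had a log2 fold change of -3.84 ± 0.15 in mutants, and the glutamyl transferase ggt1a rose by 2.88 ± 0.23 on the log2 scale (SE). Of 14 other transporters 10 fell and 4 rose in mutants (median -0.90) and 9 fell and 4 rose in WT (median -0.46). The fructose transporter SLC2A5 had log2 fold changes of -4.14 ± 0.23 in mutants and -4.44 ± 0.22 in WT (SE), an interaction of 0.30 that was not called (adjusted p = 0.576). The glucose transporter SLC2A2 had -2.56 ± 0.09 in mutants and -1.59 ± 0.08 in WT (SE). Of 23 other lipid genes 14 fell and 5 rose in mutants (median -1.10) and 13 fell and 6 rose in WT (median -0.28). There PLIN2, which coats lipid droplets in many tissues, rose by 4.75 ± 0.16 on the log2 scale in mutants, and the apolipoprotein B gene apobb.2 had -3.72 ± 0.38 (SE).

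Of 12 other structure genes 9 fell and 2 rose in mutants (median -0.59) and 7 fell and 2 rose in WT (median -0.24). The microvillus cadherin cdhr5b had -2.65 ± 0.12 and the myosin myo7bb -1.60 ± 0.09 in mutants (SE). Among 10 genes listed for lysosome-rich enterocytes and endocytosis 5 fell and 4 rose in mutants (median -0.21) and 3 fell and 3 rose in WT (median -0.12). How much of their RNA came from these enterocytes was not measured, so the medians do not describe that cell type alone. The cathepsin gene ctsbb had -3.76 ± 0.23 and the receptor gene lrp2b -3.46 ± 0.15 in mutants (SE). Of 20 intestinal transcription factors 10 fell and 4 rose in mutants (median -0.29) and 7 fell and 5 rose in WT (median -0.10), with ELF3 at 2.13 ± 0.12 and KLF4 at -1.86 ± 0.37 in mutants (SE). In WT the counts of the transcription factors, and in both genotypes those of the lysosome-rich list, were within a few genes of the shares over all genes. Nothing particular to these lists is read from these counts.

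**Figure D4:**
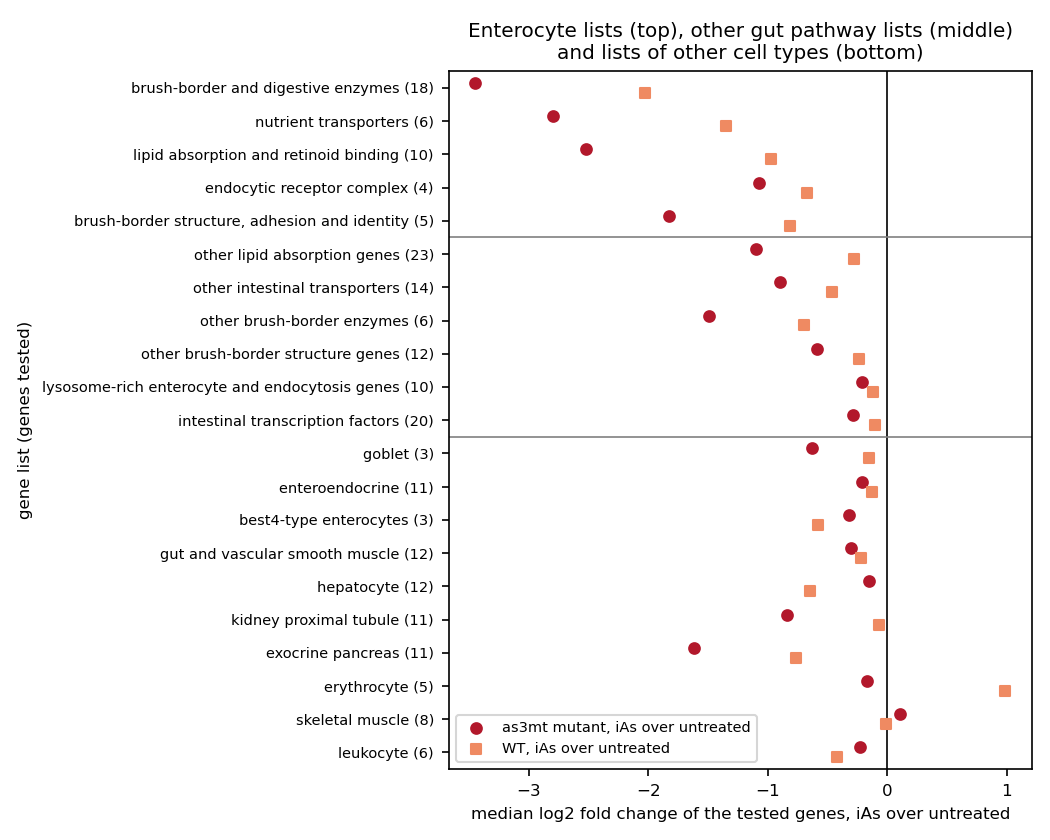
Median log2 fold change in iAs over untreated (horizontal axis) of the tested genes of each list (number in brackets), in as3mt mutants and in WT, for the enterocyte lists (top), other gut pathway lists (middle) and lists of other cell types (bottom). The brush-border and digestive enzymes have the lowest medians in both genotypes, -3.45 in mutants and -2.03 in WT, and exocrine pancreas has the lowest of the other cell types in both, -1.62 in mutants and -0.76 in WT.

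Markers of some other cell types also moved in iAs, and their part in the results above was not tested. Over all genes 32.5% were called lower and 31% higher in mutants, and 22.2% lower and 22.6% higher in WT. The hepatocyte counts in mutants were within a few genes of these shares, in a list of 12, and nothing particular is read from them. The 5 erythrocyte genes are too few for their counts to be set against them. All 11 exocrine pancreas genes fell in both genotypes, with a summed level of 2780 to 3530 CPM in treated mutants and 6200 to 7240 CPM in treated WT, against 6740 to 7910 CPM in untreated mutants and 9520 to 11600 CPM in untreated WT; the elastase genes ela2 and ela3l had log2 fold changes of -3.02 and -2.51 in mutants. Hepatocyte genes divided, with 6 of 12 lower and 5 higher in mutants and 8 lower and 1 higher in WT, ahsg2 at -6.99 and fabp10a at -3.73 in mutants. Their sum was 1360 to 1440 CPM in treated mutants, 1310 to 1670 CPM in treated WT, 1710 to 2060 CPM in untreated mutants and 2060 to 2150 CPM in untreated WT. Of 5 erythrocyte genes 2 fell in treated mutants and 4 rose and 1 fell in treated WT, with SLC4A1 (ENSDARG00000012881) at -2.26 and alas2 at -1.56 in mutants. They summed to 192 to 250 CPM in treated mutants, 337 to 392 CPM in treated WT, 239 to 299 CPM in untreated mutants and 198 to 219 CPM in untreated WT.

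Proximal tubule cells of the kidney also make cubilin, amnionless and Dab2. Their 11 other marker genes had 6 lower and 4 higher in treated mutants and 3 lower and 2 higher in treated WT, with SLC13A1 at 1.59 and slc22a4 at -1.79 in mutants. They summed to 611 to 693 CPM in treated mutants, 490 to 528 CPM in treated WT, 456 to 478 CPM in untreated mutants and 498 to 521 CPM in untreated WT. In both genotypes the counts of these 11 markers were within a few genes of the shares over all genes, and nothing particular is read from them. Those shares were 22.2% lower and 22.6% higher in WT, and 32.5% lower and 31% higher in mutants. The part of these markers in the values of the endocytic genes was not tested.

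Lists for other cells of the gut wall were read in whole-larva RNA, and how much of it came from the gut was not measured. Of 3 goblet cell genes 1 fell in each genotype, FER1L6 having -0.89 in mutants. The goblet sum was 46.4 to 54.3 CPM in treated mutants and 38.1 to 39.5 CPM in treated WT. It was 45.2 to 54.4 CPM in untreated mutants and 44.4 to 45 CPM in untreated WT. Of 11 enteroendocrine genes 6 fell and 3 rose in mutants and 4 fell and 2 rose in WT, with gcga at 2.13 and ghrl at -1.97 in mutants. Of 3 genes of best4-type enterocytes 1 fell in mutants, BEST4 at -2.70, and 2 fell and 1 rose in WT. Of 12 genes of gut and vascular smooth muscle 6 fell and 3 rose in mutants and 5 fell and 1 rose in WT. In mutants CNN1 (ENSDARG00000017193) was at -6.02 and TAGLN (ENSDARG00000033466) at 1.09. In iAs the enteroendocrine, best4-type and smooth muscle sums were 87.9%, 79.7% and 99.3% of the untreated sums in mutants. In WT they were 79.9%, 92.4% and 84.3%. Of 8 skeletal muscle genes 1 fell and 3 rose in mutants and 2 rose in WT, with ACTA1 (ENSDARG00000055618) at -0.87 and TNNT3 (ENSDARG00000030270) at 0.94 in mutants, and of 6 leukocyte genes 2 fell and 2 rose in mutants and 3 fell and 1 rose in WT, with MPEG1 (ENSDARG00000043093) at 2.86 and lyz at -1.57 in mutants. The enteroendocrine, smooth muscle, skeletal muscle and leukocyte lists are short, so a difference of a few genes is a large share. In mutants 54.5%, 50%, 12.5% and 33.3% of them were called lower, against 32.5% of all genes. In WT 36.4%, 41.7%, 0% and 50% were, against 22.2% of all genes. Nothing particular to these lists is read from these counts. The goblet and best4-type lists, with 3 tested genes each, are too short for their counts to be set against these shares. No tested gene of these lists was at 0 counts in any group.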

How the data were processed

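Poly(A) RNA libraries were sequenced from 12 pools of whole zebrafish larvae, in 4 groups of 3 libraries. The values are raw counts of reads per Ensembl gene, one file per library, deposited by the authors with no normalization. The submitters' processing notes name FastQC 0.11.5, Trimmomatic 0.36 and the GRCz10 genome; which aligner and counting tool were used, and how strand and reads matching several copies were handled, is not given in the sources used here. Overlapping or antisense genes may thus share reads.

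Of the 32105 gene IDs 26269 have a symbol in the table used here, which gives human-style symbols to many zebrafish copies. Listed symbols were matched exactly (26) or without their copy suffix (11), which gave 43 IDs, 20 of them sharing a name with another ID. Members and lists, among them 16 lists of other pathway genes and cell types in which 155 of 170 entries matched, were chosen with earlier results of these data known. No sequence table or GRCz10 annotation was used here, so no sequence or coordinate is given. Neighbour relations are from the GRCz12tu gene table.

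Counts were fitted with edgeR 4.0.16 in R 4.3.3 (filter at a minimum count of 10, trimmed-mean normalization, robust quasi-likelihood fit of 4 group means over the 12 libraries). Contrasts were iAs in each genotype, genotype in each treatment, and their interaction, with Benjamini-Hochberg adjustment over 23096 genes. The common biological coefficient of variation was 9%. Tested on simulated data for iAs in mutants over 22814 genes, the fit recovered 50%, 90.8% and 98.5% of genes changed by 0.5, 1 and 2 log2 units, and 4.88% of its calls were false. The simulation gave every gene the same dispersion and changed 66, 65 and 65 tested genes by these sizes, in the treated mutants alone. In the real libraries dispersions differ by gene and far more genes were called, so these rates need not hold there. Replicates differed by more than counting noise (chi-square per degree of freedom 5.18 to 21.5 for each pair), and none were merged. Per-library values are given for up to 4 members per role list with the largest called change in mutants, for members called against their list, for up to 2 with the largest called interaction, and for those at 0 counts in a group; the other lists name up to 2 genes. Alternatives were other size factors, DESeq2 1.42.0, other filters, a replicate block, only the libraries compared, each library left out, and, chosen after seeing the data, members matched by exact symbol or with an unshared name.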

Additional observations from a re-analysis of the deposited data

Results flagged for a closer look

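For 32 of the 43 enterocyte genes the iAs response differed between as3mt mutants and WT by the interaction test (edgeR's quasi-likelihood test, adjusted p below 0.05). Over all tested genes 18.1% were called lower and 12.2% higher by the same test. Values below are log2 differences, the mutant response minus the WT response; a negative value means a deeper fall, or a fall against a rise, in mutants.

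Among enzymes of peptide digestion they were -3.99 for cpo, -2.05 for mep1a.1, -1.66 for mep1a.2, -1.48 for MEP1B (ENSDARG00000040683) and -1.28 for dpp4. The aminopeptidase IDs ANPEP (ENSDARG00000036809) and ANPEP (ENSDARG00000103878) had -1.02 and -0.92. LCT (ENSDARG00000060671) had -2.34, and the chitinase genes chia.1, chia.2 and chia.3 had -2.14, -1.47 and -1.31. The call of chia.3, which has under 1 CPM in treated mutants, was lost without any 1 of the treated mutant libraries or without replicate 1 or 3 of the untreated mutants (log2 -1.44 to -1.15).

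The peptide transporter IDs SLC15A1 (ENSDARG00000100315) and SLC15A1 (ENSDARG00000044528) had -2.42 and -1.53. SLC6A19 had -1.38 for ENSDARG00000056719, -0.95 for ENSDARG00000018621 and -0.83 for ENSDARG00000091560. SLC5A1 had -0.40 (adjusted p = 0.038), a call lost in 9 of 12 fits with 1 library left out, all but those without replicate 2 of the treated mutants, replicate 3 of the treated WT or replicate 1 of the untreated mutants (adjusted p 0.00183 to 0.0938).

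In lipid handling apoa4b.2 had -2.95 and apoa4b.1 -0.65, FABP2 -1.58, FABP1 (ENSDARG00000059227) -1.27, MOGAT2 -1.47 and MTTP -0.84. The retinol-binding IDs RBP2 (ENSDARG00000093774) and RBP2 (ENSDARG00000070038) had -1.40 and -1.12. The first call was lost in 8 of 12 such fits, all but those without replicate 2 or 3 of the treated mutants, replicate 3 of the treated WT or replicate 1 of the untreated mutants (adjusted p 0.00743 to 0.077).

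Endocytic CUBN had -0.58 and dab2 (ENSDARG00000031761) -0.35, while DAB2 (ENSDARG00000053091) had 0.63, the 1 positive value. Of the structure genes TM4SF5 had -2.65, VIL1 -1.45, TM4SF4 -0.81 and pdzk1 -0.47. The explanations for these differences were not tested, and genotype and strain background cannot be told apart.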

How the results depend on the processing

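Counts of called members for iAs in mutants, iAs in WT, genotype in iAs and the interaction stayed within 1.5 times of those reported under other size factors, DESeq2, other filters, a replicate block and only the libraries compared (the interaction needs all libraries), except that the 1 member called higher in iAs in WT, apoa4b.2, was 0 with no filter and 0 with the replicate block. With only the libraries compared apoa4b.2 was not called in WT either (log2 0.45, edgeR adjusted p = 0.0953). The member called higher there was VIL1 (log2 0.14, edgeR adjusted p = 0.0446). Members called in untreated mutants against untreated WT numbered 12, with 6 higher, when only those libraries were fitted, against 7 and 3 as reported. All 42 calls for iAs in mutants held in each of the 12 fits that left out 1 library; 36 of 39 did in WT, 33 of 35 for genotype in iAs, 2 of 7 for untreated genotype and 29 of 32 for the interaction.

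Leaving out each library in turn gave 42 to 42 called members for iAs in mutants (41 to 41 lower, 1 to 1 higher). It gave 36 to 39 for iAs in WT (36 to 38 lower, 0 to 1 higher) and 33 to 36 for genotype in iAs (32 to 35 lower, 1 to 1 higher). Untreated genotype gave 2 to 11 (2 to 5 lower, 0 to 6 higher), and the interaction 29 to 34 (28 to 33 lower, 1 to 1 higher). A group left with 2 libraries borrows the spread estimated over all groups. The uncalled interaction of ENPP7 (ENSDARG00000053525), 0.19 as reported, ran over -1.09 to 0.61 with each library left out. It was -1.09 without replicate 2 of the treated mutants, and -0.03 without replicate 3 of the untreated mutants or replicate 1 of the untreated WT; at under 1 CPM its sign is not determined at this depth. With library size alone the endocytic median was -1.13 for iAs in mutants and -0.47 for the interaction. That scaling also took away 2 WT calls in edgeR, of ANPEP (ENSDARG00000036809) (adjusted p = 0.0559) and apoa4b.1 (adjusted p = 0.0567). With DESeq2 size factors in edgeR the interaction of SLC5A1 was not called (log2 -0.37, adjusted p = 0.0514). The cause of these shifts was not tested.

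Members whose name no other ID shares, an alternative chosen after seeing the data, gave 0% called higher for iAs in mutants, 4.35% for iAs in WT, 0% for genotype in iAs and 0% for the interaction, since DAB2 (ENSDARG00000053091) drops out. Replicate numbers gave no clear pairing of the libraries (correlations of same-numbered deviations -0.0262 to 0.0695, and not every library correlated best with its own number). For iAs in WT each treated library did correlate best with its own number (0.00649, 0.0374 and 0.0695). Such correlations cannot show whether clutches were shared. With the replicate block 42, 38, 35, 7 and 30 members were called for iAs in mutants, iAs in WT, genotype in iAs, untreated genotype and the interaction. It took away the calls of apoa4b.2 in WT (log2 0.44), MEP1B (ENSDARG00000037533) between untreated genotypes (log2 -1.67), and the interactions of SLC5A1 (-0.40) and RBP2 (ENSDARG00000093774) (-1.42). Under 1 CPM (TREH, 1 ENPP7 ID and 1 FABP1 ID) counting error limits fold changes.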
